A study of Mus musculus with 12 samples.

Results

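The 10 genes studied here belong to elastic fibres and fibulins and were followed in heart muscle of control and mdx mice. They are Eln, Fbn1, Mfap5, Mfap4, Mfap2, Efemp1, Efemp2, Fbln1, Fbln2 and Lox. They were chosen by name for their part in elastin, microfibrils, fibulins and cross-linking. An annotated probe set was at hand for 8 of these 10 genes, among 12393 genes in all, through 13 of 22690 probe sets on Affymetrix MOE430A arrays. No probe set was paired with Fbn1 or Efemp2 in the annotation used here, so these 2 are not analysed here. Controls are described as wild type in the title of the series. The mdx mouse carries a mutation of the dystrophin gene Dmd and is a standard model of Duchenne muscular dystrophy. The 12 arrays fell into 4 groups of 3, with hearts of either genotype taken at 8 weeks (young, below) or at 10.5 months (older). The labels give no strain, sex, part of the heart or time of collection, and nothing says that replicates came from separate animals, so p-values measure the spread between these samples only.

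Elastic fibres let arteries, valves and the interstitium of the heart recoil. Tropoelastin, the product of Eln, is deposited on a scaffold of fibrillin microfibrils and is cross-linked by lysyl oxidase, the product of Lox. The microfibril-associated glycoproteins Mfap2 and Mfap5 bind fibrillin, and they also bind growth factors of the TGF-beta and BMP families. Fibulins are calcium-binding proteins with EGF-like repeats, and Efemp2 (fibulin-4) brings lysyl oxidase to tropoelastin.

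Signals below are deposited intensities rescaled so that the trimmed mean of each array was 500, and they compare samples for 1 probe set but not one probe set with another. Changes are differences of log2(signal + 32) ± the standard error of a limma fit over all 12 arrays, and fold changes are on that scale. A change was called at a Benjamini-Hochberg adjusted p below 0.05 over all 14932 probe sets whose mean signal was at least 100. Of the 13 member probe sets 10 passed this filter, for 7 genes (Eln, Mfap5, Mfap2, Efemp1, Fbln1, Fbln2 and Lox). Those left out were the only probe set of Mfap4, a fibrinogen-related microfibril protein (10.7 to 20.0 on all arrays), 1 of 3 of Lox (1.3 to 32.6) and 1 of 2 of Eln.

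The arrays were checked against their labels. Dmd was lower on all 6 mdx arrays (159 to 286) than on all 6 control arrays (607 to 839). The ventricular genes Myl2, Myl3, Myh6, Tnni3, Actc1 and Tnnt2 were bright on every array, and of 9 measured genes of fast and extraocular skeletal muscle only Ckm, which the heart also expresses, reached the filter, although a keyword of the labels names extraocular muscle. A wide signal range (99th percentile of deposited signal 40770 to 53154, against at most 32810 on the other 8 arrays) marked 4 arrays, which were control replicate 2 and mdx replicates 1 and 2 at 8 weeks and mdx replicate 3 at 10.5 months. Atrial markers were uneven, with a summed signal of 5 genes of 4409 to 6400 in young controls, 11966 to 12964 in young mdx, 4987 to 22868 in older controls and 11815 to 18220 in older mdx hearts. Most of that sum was Nppa (10868 to 17080 in older mdx), a gene that stressed ventricles also express. All 5 were higher in young mdx hearts (median 0.93). In older mdx hearts 1 of 5 was higher (Nppa, 0.76) and the median was -1.65, with Myl7 at -2.08 and Sln at -2.85. None of these values was called. On the older control arrays Myl7 read 3554, 2216 and 131, and Sln 2242, 1220 and 9.13. Control replicates 1 and 2 thus stood out there, while control replicate 3 lay below the older mdx arrays for both genes. These controls are the reference for mdx at 10.5 months.

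For mdx against control, no member probe set passed the test at either age. At 8 weeks 0 of 10 were called by limma, against 343 of all 14932 tested (2.3%), and 1 of 10 had an unadjusted p below 0.05, against 17.8% of all. At 10.5 months 0 of 10 were called, against 7 of all (0.0469%), and 4 of 10 had an unadjusted p below 0.05, against 7.37% of all. The median change of the 10 probe sets was 0.25 at 8 weeks and 0.43 at 10.5 months, against -0.01 and -0.03 over all tested. At 10.5 months all 3 mdx arrays lay above all 3 control arrays for 4 of 10 member probe sets (both of Mfap5, and those of Eln and Lox given below) and in no case below, while 7.51% of all tested probe sets were higher without overlap and 10.6% lower. At 8 weeks none of the 10 was free of overlap, against 9.51% of all higher and 10.1% lower. Averaged over both ages, 0 of 10 were called (0.201% of all) and 4 of 10 had an unadjusted p below 0.05 (13.6% of all). The difference between the 2 ages in the effect of mdx gave 0 of 10 calls (0.154% of all) and 1 of 10 with an unadjusted p below 0.05 (12.1% of all). An exact permutation test of 3 against 3 arrays cannot give a two-sided p below 0.1.

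**Figure D1:**
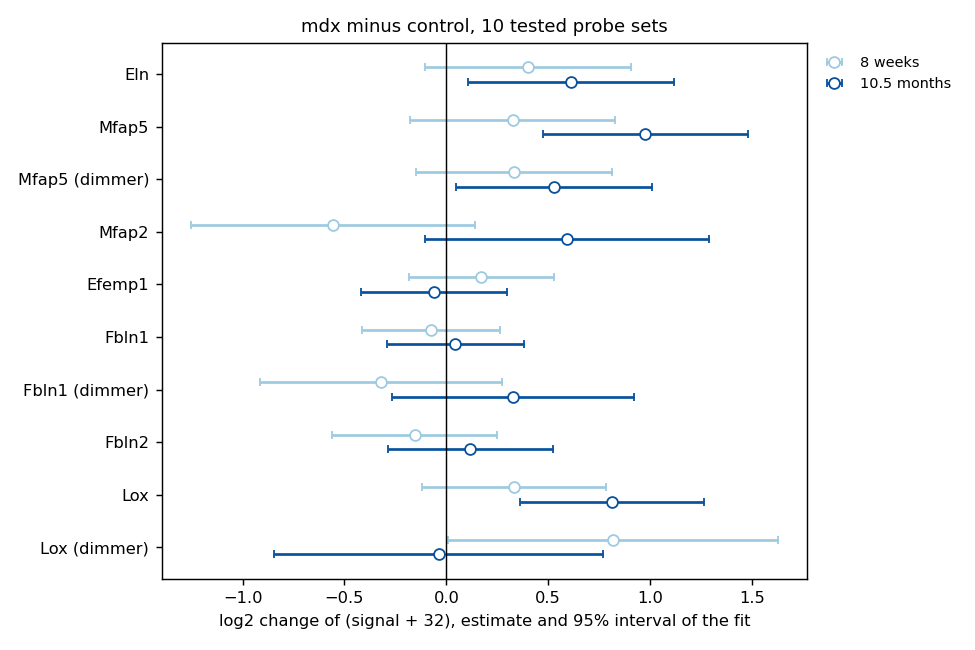
Change of log2(signal + 32) between mdx and control hearts for the 10 tested probe sets, at 8 weeks (light) and 10.5 months (dark), with the 95% interval of the fit; "dimmer" marks the second probe set of a gene. At 10.5 months the intervals of Eln, both probe sets of Mfap5 and the brighter one of Lox lie above 0, but every symbol is open because no adjusted p was below 0.05.

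Among the members, 2 genes rose with age. Between 8 weeks and 10.5 months Efemp1 rose in control and in mdx hearts, and the brighter probe set of Mfap5 rose in mdx hearts. In control hearts this was 1 of 10 probe sets called, against 0.147% of all tested (0.0938% higher and 0.0536% lower with age). In mdx hearts it was 2 of 10, against 11.4% of all tested (5.45% higher and 5.97% lower). No member was called lower. The age groups of mdx hearts did not overlap for 4 of 10 probe sets that were higher in older hearts (Mfap5, Mfap2, Efemp1 and Fbln2; 14.7% of all tested) and for 1 that was lower (Eln; 15.5% of all). In control hearts they were apart for 2 of 10 that were higher (Mfap5 and Efemp1; 12.2% of all) and none that was lower (10.5% of all). In whole tissue, more cells of a type and more RNA per cell cannot be told apart.

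**Figure D2:**
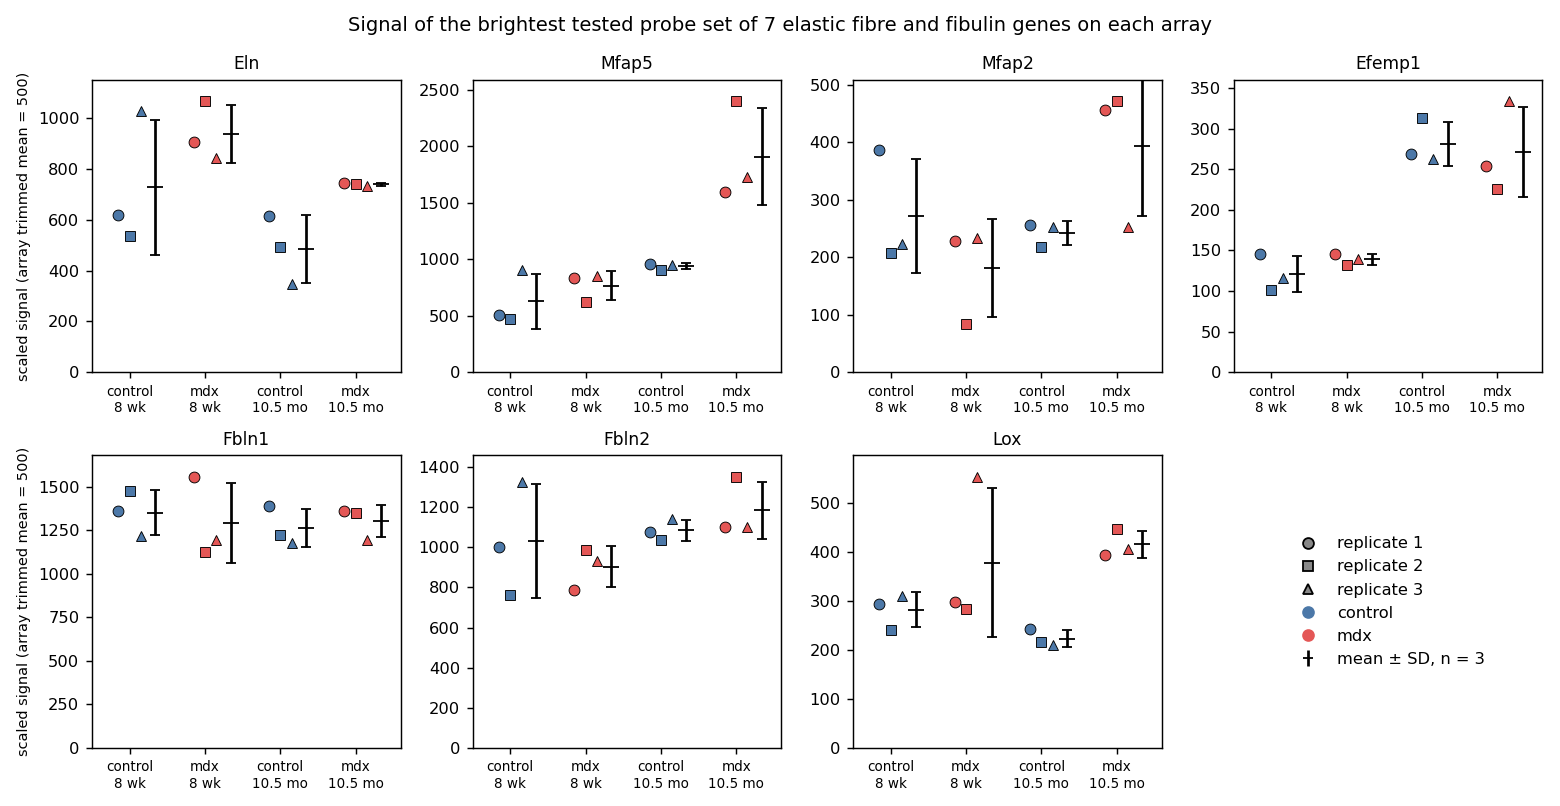
Scaled signal of the brightest tested probe set of each of 7 genes on the 12 arrays, with control in blue, mdx in red, marker shapes for the replicate number, and the mean ± SD of 3 arrays beside each group. Efemp1 is higher on all 6 older hearts than on all 6 young ones, and Mfap5 is highest on the 3 older mdx arrays.

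Mfap5 encodes a microfibril-associated glycoprotein of elastic and elastin-free microfibrils. Its brighter probe set read 501, 471 and 903 on the young control arrays and 830, 617 and 850 for young mdx. Older controls stood at 960, 907 and 952, and the older mdx hearts at 1598, 2398 and 1730. The older mdx arrays were thus above the remaining 9, while the young groups overlapped. Within mdx hearts it rose 2.42-fold with age, from 766 ± 129 to 1909 ± 429 (SD, n = 3; log2 1.27 ± 0.23, limma adjusted p = 0.00735). In control hearts the value was 0.62 ± 0.23 (adjusted p = 0.312), from 625 ± 241 to 939 ± 28.4. The older mdx hearts exceeded their controls by 0.98 ± 0.23 (95% interval 0.47 to 1.48, adjusted p = 0.349) and the young ones by 0.33 ± 0.23 (adjusted p = 0.502), neither past the threshold. With 1 array left out the young value ranged from 0.16 (without control replicate 2) to 0.61 (without control replicate 3). These comparisons share arrays, since the older mdx hearts enter both. The difference between the 2 ages in the effect of mdx was 0.65 ± 0.33 (adjusted p = 0.458).

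The dimmer probe set of Mfap5 did not repeat the rise with age. It read 227, 434 and 374 on the young control arrays, against 408, 341 and 564 on the young mdx arrays. Older controls stood at 386, 345 and 311, and older mdx hearts at 459, 544 and 540. Only the older groups did not overlap. Its change with age in mdx hearts was 0.24 ± 0.22 (adjusted p = 0.498), its value for mdx at 10.5 months was 0.53 ± 0.22 (adjusted p = 0.666), and averaged over both ages it was 0.43 ± 0.16 (adjusted p = 0.265). The brighter one had a mean over both ages of 0.65 ± 0.17 (adjusted p = 0.121). Among the 8 arrays of narrow signal range, 1 young mdx array remains and is assumed to vary like the other groups, and the change of the brighter probe set with age in mdx hearts was then 1.17 (adjusted p = 0.0828). Fitting the signal range as a block gave 1.17 as well (adjusted p = 0.0103). Here 2 of 3 young mdx arrays and 1 of 3 older ones had the wide range.

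**Figure D3:**
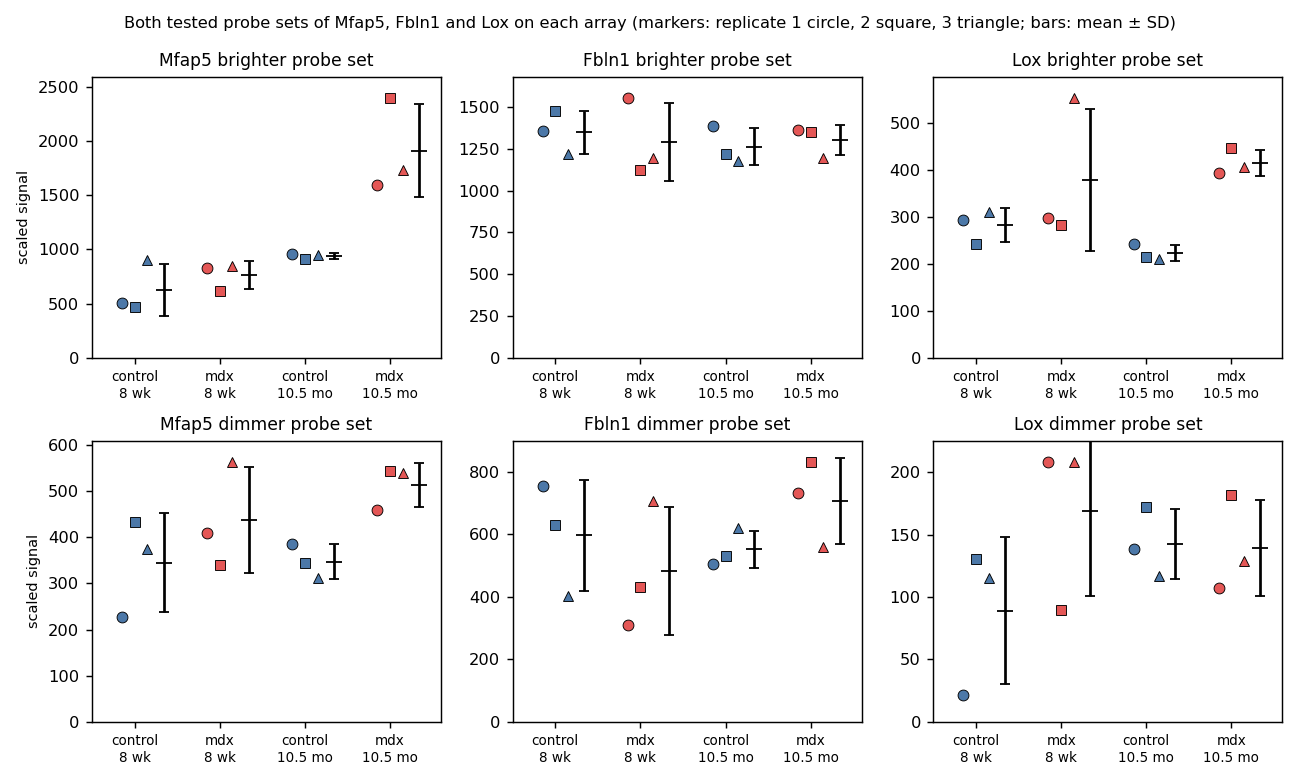
Scaled signal of both tested probe sets of Mfap5, Fbln1 and Lox on each array (circle, square and triangle for replicates 1, 2 and 3; control in blue, mdx in red; bars show the mean ± SD of 3 arrays). For Mfap5 both probe sets are higher in all 3 older mdx hearts than in the older controls, while for Lox only the brighter one is.

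Mfap2 encodes the related glycoprotein that binds fibrillin along elastic fibres. Its signal reached 386, 207 and 222 in young controls, and the young mdx replicates lay at 228, 83.4 and 234. The older controls came to 256, 218 and 252, next to 457, 471 and 253 for mdx of that age. On 2 older mdx arrays it stood above all others and the third lay within the older controls. With age it changed by 1.04 ± 0.32 in mdx hearts, which did not pass (adjusted p = 0.0535). Several other settings put it below the threshold, among them quantile normalization (1.11, adjusted p = 0.0325), an offset of 64 (0.93, adjusted p = 0.0446) and the fit without mdx replicate 3 at 8 weeks (1.25, adjusted p = 0.0365). Without mdx replicate 2 at 8 weeks, the lowest array, the value was 0.65 (adjusted p = 0.156). The genotype difference was -0.56 ± 0.32 in young hearts (adjusted p = 0.396), with mdx lower, and 0.59 ± 0.32 in older ones (adjusted p = 0.712). The young value was -0.16 without mdx replicate 2 and -0.30 without control replicate 1.

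Eln encodes tropoelastin, the elastic core of the fibre. Its tested probe set lay at 620, 535 and 1031 on arrays of young controls, beside 907, 1067 and 843 for young mdx. In the older animals the control arrays held 615, 494 and 346 and the mdx arrays 745, 743 and 733. The older groups did not overlap, and the young ones did through control replicate 3. For mdx over control the value was 0.61 ± 0.24 in older hearts (95% interval 0.11 to 1.12, adjusted p = 0.665) and 0.40 ± 0.24 in young ones (adjusted p = 0.401), neither past the threshold. Leaving out 1 array moved the young value to between 0.22 (without control replicate 2) and 0.67 (without control replicate 3), and in arrays of narrow range, with 1 young mdx array, it was 0.07. The mean over both ages was 0.51 ± 0.17 (adjusted p = 0.219). With age the values were -0.54 ± 0.24 in control and -0.32 ± 0.24 in mdx hearts (adjusted p = 0.381 and 0.379), and all 3 older mdx arrays lay below all 3 young ones. The other probe set of Eln was below the filter, at 35.1 to 89.8 on 11 arrays and 325 on mdx replicate 2 at 8 weeks.

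Lox encodes lysyl oxidase, the enzyme that begins the cross-linking of elastin and collagen. Its brightest probe set read 294, 242 and 311 on the young control arrays, against 299, 283 and 554 on the young mdx arrays. Older controls stood at 243, 215 and 210, and older mdx hearts at 394, 447 and 406. The older groups were well apart (223 ± 17.7 and 416 ± 27.8, SD, n = 3), and at 8 weeks only mdx replicate 3 stood above the controls. The mdx excess was 0.81 ± 0.21 among older hearts (95% interval 0.36 to 1.26, adjusted p = 0.367) and 0.33 ± 0.21 among young ones (adjusted p = 0.433), and neither passed. The mean over both ages was 0.57 ± 0.15 (adjusted p = 0.129). Among the 8 arrays of narrow range alone that mean was 0.82 (adjusted p = 0.0222), but mdx replicate 3 is then the only young mdx array and is assumed to vary like the other groups. Without that replicate the 8-week value of Lox was 0.05 (adjusted p = 0.905).

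The second tested probe set of Lox was dim and showed another pattern. It reached 21.7, 130 and 115 in young controls, and the young mdx replicates lay at 208, 89.9 and 208. The older controls came to 138, 172 and 117, next to 107, 182 and 129 for mdx of that age, and the groups overlapped at both ages. Its mdx value was 0.82 ± 0.37 for young hearts (adjusted p = 0.275) and -0.04 ± 0.37 for older ones (adjusted p = 0.986). Without control replicate 1, the array at 21.7, the young value was 0.31. The separation of the older groups was therefore seen with 1 of 2 tested probe sets of Lox.

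Efemp1 encodes fibulin-3, a short fibulin of basement membranes and fascia. Its signal lay at 146, 101 and 115 on arrays of young controls, beside 146, 132 and 140 for young mdx. In the older animals the control arrays held 269, 313 and 263 and the mdx arrays 255, 226 and 334. All 6 older arrays were above all 6 young ones, and the genotypes overlapped at each age. It rose 2.06-fold with age in control hearts, from 121 ± 22.6 to 282 ± 27.4 (log2 1.04 ± 0.17, adjusted p = 0.0230). In mdx hearts it rose 1.75-fold, from 139 ± 7.1 to 271 ± 56.0 (0.81 ± 0.17, adjusted p = 0.0110). The rises were not shown to differ (-0.23 ± 0.23, adjusted p = 0.737). Mdx and control differed by 0.17 ± 0.17 at 8 weeks and by -0.06 ± 0.17 at 10.5 months (95% intervals -0.18 to 0.53 and -0.42 to 0.30, adjusted p = 0.627 and 0.956), and the second value was 0.01 with an atrial score as covariate.

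The call in control hearts was near the threshold. Leaving out any 1 of the 6 control arrays ended it, with changes of 0.95 to 1.16 and adjusted p from 0.0522 (without replicate 1 at 8 weeks) to 0.139 (without replicate 2 at 10.5 months). It also ended with the atrial score as a covariate (0.98, adjusted p = 0.108). Among arrays of narrow range the values were 0.95 in control hearts (adjusted p = 0.0711) and 0.66 in mdx hearts (adjusted p = 0.0826), the latter from 2 older arrays and 1 young array whose spread is borrowed from the other groups. With the range as a block the values were 1.06 (adjusted p = 0.0334) and 0.83 (adjusted p = 0.0131).

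**Figure D4:**
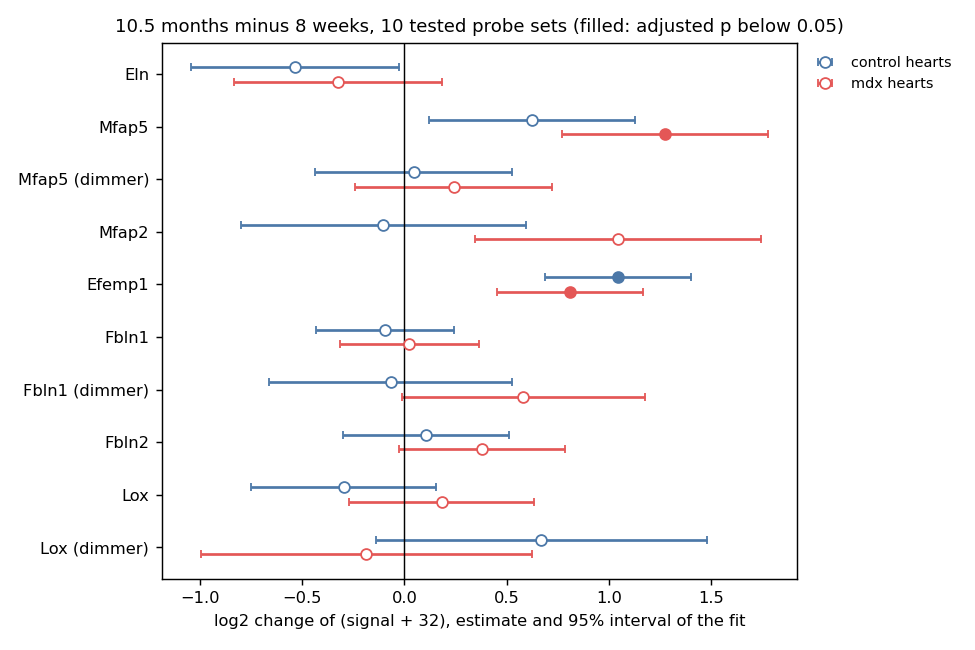
Change of log2(signal + 32) from 8 weeks to 10.5 months in control hearts (blue) and mdx hearts (red) for the 10 tested probe sets, with the 95% interval of the fit. Filled symbols mark an adjusted p below 0.05, which Efemp1 reached in both genotypes and the brighter Mfap5 probe set in mdx hearts.

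The sequence before the annotated start is shown for Efemp1, the gene called with age in both genotypes, and for Mfap2 and Fbln1, members that were not called in any comparison. RefSeq's promoter table (GRCm38.p6) held 6 of the 10 members, and for 5 it covered the 150 bases just before the outermost start of the gene. Capitals mark matches on either strand to the TATA box motif TATAAA, the GC box motif GGGCGG, the CCAAT box or the AP-1-like motif TGANTCA. The letter N stands for any base, and no matches overlap. The regions are chr11:28853004-28853153, chr4:141010274-141010423 and chr15:85205799-85205948, all on the plus strand.
Efemp1: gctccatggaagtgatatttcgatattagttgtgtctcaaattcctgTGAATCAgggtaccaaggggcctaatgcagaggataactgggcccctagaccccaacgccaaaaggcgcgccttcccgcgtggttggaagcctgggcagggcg
Mfap2: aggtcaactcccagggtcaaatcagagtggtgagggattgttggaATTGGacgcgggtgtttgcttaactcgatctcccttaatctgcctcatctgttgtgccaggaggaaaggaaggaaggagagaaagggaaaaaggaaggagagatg
Fbln1: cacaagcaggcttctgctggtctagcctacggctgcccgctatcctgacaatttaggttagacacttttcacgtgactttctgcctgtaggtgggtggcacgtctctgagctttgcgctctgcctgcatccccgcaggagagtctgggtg

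Efemp1 held 1 match to TGANTCA, with the letters TGAATCA. A match to that pattern was held by 4.41% of 22803 gene promoters of the same length. Mfap2 held 1 CCAAT box, as did 25.71% of promoters, and Fbln1 held no match. TATA boxes were in 8.64% and GC boxes in 25.71% of promoters, and in these 3 windows neither was found. These matches describe letters only, and binding was not measured.

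Fbln1 and Fbln2 encode large fibulins of basement membranes, vessel walls and valves. The brighter probe set of Fbln1 read 1358, 1474 and 1218 on the young control arrays, against 1554, 1123 and 1193 on the young mdx arrays. Older controls stood at 1389, 1222 and 1178, and older mdx hearts at 1361, 1350 and 1196. The groups overlapped throughout. Mdx and control differed by -0.07 ± 0.16 at 8 weeks and 0.04 ± 0.16 at 10.5 months (95% intervals -0.41 to 0.26 and -0.29 to 0.38, adjusted p = 0.846 and 0.965).

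The dimmer probe set of Fbln1 varied more between replicates, at 755, 630 and 403 in young controls, 308, 430 and 706 in young mdx hearts, 506, 531 and 618 in older controls and 731, 831 and 559 in older mdx hearts. It differed by -0.32 ± 0.27 at 8 weeks and 0.33 ± 0.27 at 10.5 months (adjusted p = 0.583 and 0.832). Among arrays of narrow range the 8-week value was 0.33, of opposite sign. Fbln2 reached 1004, 761 and 1326 in young controls, and the young mdx replicates lay at 789, 987 and 932. The older controls came to 1077, 1034 and 1142, next to 1103, 1351 and 1099 for mdx of that age. Genotypes overlapped at both ages, with differences of -0.16 ± 0.19 and 0.12 ± 0.19 (adjusted p = 0.713 and 0.916), while all 3 older mdx arrays lay above the young mdx arrays (0.38 ± 0.19, adjusted p = 0.193).

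Of 35 further genes of elastic fibres, 27 had a probe set and 22 were tested. For mdx against control 0 of 22 were called at either age (2.3% and 0.0469% of all tested). The medians were 0.07 at 8 weeks and 0.16 at 10.5 months. Above 0 were 16 and 18 of 22, against 48.3% and 44.5% of all tested. With age 0 of 22 were called in controls (0.147% of all tested). In mdx hearts 1 of 22 fell and none rose, against 5.97% lower and 5.45% higher over all tested. That gene was Loxl4, a lysyl oxidase relative, at 199, 300 and 334 in young and 175, 184 and 145 in older mdx hearts (-0.61 ± 0.18, adjusted p = 0.0432), with no overlap. In controls it went from 218, 192 and 218 to 120, 124 and 145 (-0.58 ± 0.18, adjusted p = 0.218). The smallest p-values for mdx at 10.5 months belonged to the protease inhibitor gene Timp1 (1.29 ± 0.42, adjusted p = 0.587), the latent TGF-beta binding protein gene Ltbp1 (-0.47 ± 0.22, adjusted p = 0.674) and the elastin-degrading cathepsin gene Ctsk (0.45 ± 0.21, adjusted p = 0.674). Each of these 3, picked for a small p in this comparison, had older groups that did not overlap. Over all tested probe sets 7.51% were higher and 10.6% lower without overlap. Fbln5, the fibulin that tethers tropoelastin to cells, was at 0.04 ± 0.14 and -0.12 ± 0.14 at 8 weeks and 10.5 months (adjusted p = 0.911 and 0.880). Fbn2, Ltbp2, Fbln7, Elane and Mmp12 were below the filter.

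Markers of cells that make these proteins were read beside the members. Of 11 fibroblast markers 9 were above 0 for mdx at 10.5 months (median 0.18) and none was called, after 10 of 11 at 8 weeks (median 0.28), also with none called. Lum (0.78), Dpt (0.62), Postn (1.31) and Col3a1 (0.44) were higher in older mdx hearts than in their controls without overlap. So were both probe sets of Mfap5, the tested one of Eln and the brightest of Lox. Over all tested probe sets 7.51% were higher without overlap. The other fibroblast markers overlapped, and Pdgfra (-0.02) and Ddr2 (-0.07) were below 0. The summed signal of the list was 26084 to 33625 in young controls, 35396 to 43276 in young mdx hearts, 29217 to 31281 in older controls and 33317 to 40992 in older mdx hearts. With age in mdx hearts 2 of 11 rose (5.45% of all tested did) and 4 of 11 were below 0 without a call, Gsn lowest at -0.58, for a list median of 0.13. Those that rose were the dermatopontin gene Dpt (1.05 ± 0.17, adjusted p = 0.00425) and the proteoglycan gene Lum (1.17 ± 0.19, adjusted p = 0.00432). Valve, tendon and cartilage markers summed to 639 to 770 in young controls, 1034 to 1169 in young mdx hearts, 851 to 969 in older controls and 1353 to 1752 in older mdx hearts. Of the 3 tested, Prg4, which encodes lubricin, rose with age in mdx hearts (0.94 ± 0.23, adjusted p = 0.0231), against 5.45% of all tested. Scx, Sox9, Tnmd, Col2a1 and Chad were below the filter. For mdx at 10.5 months Comp (1.05) and Prg4 (0.97) were higher without overlap, against 7.51% of all tested. Acan was at -0.07 with overlap, for a list median of 0.97. At 8 weeks all 3 were above 0 (median 0.53), only Prg4 without overlap (0.75; 9.51% of all tested). None of these mdx values was called. Of 7 tested smooth muscle and pericyte markers 4 were above 0 for mdx at 10.5 months (median 0.05). The list summed to 20001 to 22025 on older control arrays and 22876 to 24647 on older mdx arrays. Young arrays gave 23295 to 30261 (control) and 20528 to 31787 (mdx). Most of the older sums was Rgs5 (control mean 8822, mdx mean 9164) and Des (6368, 7558). Acta2 had means of 3007 and 4706, while Smtn, Myh11 and Pdgfrb were lower for mdx. Like the other sums here, this one follows its brightest probe sets and is not a level of a cell type. At 8 weeks Acta2 and Smtn, both contractile genes of smooth muscle, fell in mdx hearts (-0.80 ± 0.14 and -0.69 ± 0.16, adjusted p = 0.0184 and 0.0467). These were 2 of 7 tested, against 2.3% of all tested called in either direction. Acta2 also fell with age in controls (-1.16 ± 0.14, adjusted p = 0.00505), which was 1 of 7, against 0.0536% of all called lower. At 10.5 months Acta2 was at 0.64 ± 0.14 for mdx (adjusted p = 0.287), without overlap. Its difference between ages was called (1.44 ± 0.20, adjusted p = 0.0196), which was 1 of 7, against 0.154% of all tested. Tagln (0.20) was also higher without overlap in older mdx hearts. Myh11 (-0.67), Smtn (-0.40) and Pdgfrb (-0.27) went the other way, lower without overlap, and none of these was called at that age. Over all tested probe sets 7.51% were higher and 10.6% lower without overlap at 10.5 months. Mesothelial, endothelial, macrophage and lymphoid lists had no called member in any of the 6 comparisons. For mdx, 0 of 7 endothelial markers were above 0 at 8 weeks (median -0.16) and 1 at 10.5 months (median -0.17). Tie1 was lower without overlap at both ages (-0.48 and -0.34; 10.1% and 10.6% of all tested were). So were Vwf (-0.59) and Tek (-0.17) at 10.5 months. Of 7 macrophage markers 5 were above 0 at 8 weeks and 7 at 10.5 months (median 0.18 at each age). The part of these cell types in the values of Mfap5, Eln and Lox was not tested.

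Genes of similar pattern were sought for the 3 members that varied most over the 12 arrays, by the root mean square difference of mean-centred log2 signal among 8845 other genes. Nearest to Mfap5 were the matrix proteoglycan gene Aspn (0.27), Uchl1 (0.28) and Lum (0.30). Nearest to Efemp1 were Nrbf2 (0.18), Acsl6 (0.21) and Wtap (0.22). Nearest to Mfap2 were Mre11a (0.28), Sqle (0.29) and Rhd (0.31). These genes were picked for their likeness, which is a description of these arrays.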

How the data were processed

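Total RNA of mouse heart was hybridised to 12 Affymetrix arrays, 3 in each of 4 groups taken from the sample titles. The deposited values are intensity on a linear scale, 1 per probe set, and the arrays share a trimmed mean (1500.6 to 1500.9, with 2% left off at each end) in those values; no source states how the authors scaled them. The labels' protocols refer to Affymetrix's own procedure; the summarising software and detection calls are not given in the sources used here. Genes were named through the platform annotation (20393 probe sets with 1 gene, 691 with several, 1606 with none), with 20364 symbols matched in RefSeq's gene table. Probe sets of several genes were left unnamed.

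Arrays were rescaled to a trimmed mean of 500, an offset of 32 (96 deposited units) was added and log2 taken, which understates changes of dim probe sets. Control probe sets (64) and those with a mean under 100 were left out. limma 3.58.1 in R 4.3.3 (lmFit, eBayes; 8 residual and 5.2 prior degrees of freedom) fitted a mean per group on all 12 arrays, for 6 comparisons, with Benjamini-Hochberg adjustment over 14932 probe sets. On simulated arrays with changes at 10.5 months the fit recovered 99 of 99 changes of log2 size 2 and 74 of 101 of size 1. The simulated noise was normal and independent between arrays and probe sets. It held no wide signal range and no uneven atrial signal, so these shares are not the power of the real arrays. The main fit assumed no pairing by replicate number. Same-numbered arrays correlated between -0.13 and 0.13 after group means were removed. Differently numbered arrays were not set beside them, so this does not exclude pairing. The number of arrays limits the precision.

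Every member is named, by its brightest tested probe set and the others beside it. Of the further elastic fibre genes, those called in any comparison and the 3 of smallest p for mdx at 10.5 months are named; Fbln5 was added after its values were seen. Members and lists were chosen with earlier results of these data known. Alternatives covered the scaling, offset, filter, prior, replicate block, signal range, atrial markers, each age alone and each array left out; arrays of narrow range alone were added after seeing the data.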

Additional observations from a re-analysis of the deposited data

Results flagged for a closer look

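Mfap2 and Fbln2 were singled out because all 3 mdx arrays lay below the control mean at 8 weeks and all 3 lay above it at 10.5 months. For Mfap2 the difference between the ages in the effect of mdx was 1.15 ± 0.46 (limma adjusted p = 0.337), and for Fbln2 it was 0.27 ± 0.27 (adjusted p = 0.723), so neither difference passed the test. The Mfap2 value was 0.75 without mdx replicate 2 at 8 weeks. Groups of 3 arrays are too small for the outlier test used elsewhere.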

How the results depend on the processing

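Values are log2 changes. For mdx against control no member probe set was called at either age, nor for the difference between ages, under any setting tried. Some uncalled values changed sign. At 8 weeks Fbln1 was 0.0033 with quantile normalization and, with 1 array left out, -0.21 to 0.016, while Fbln2 ranged from -0.35 to 0.039 (positive without control replicate 3). Under the narrow signal range alone the dimmer Fbln1 was 0.33 there. At 10.5 months Efemp1 was 0.0083 with the atrial covariate and -0.20 to 0.049 with 1 array left out, the dimmer Lox was -0.21 to 0.10 and Fbln1 -0.0025 to 0.11. The difference between ages for Eln ranged from -0.057 to 0.40, and the change with age of the dimmer Mfap5 in controls from -0.20 to 0.22. In arrays of narrow range alone, age changes in mdx hearts were -0.37 for Lox and -0.16 for the dimmer Mfap5. The cause of these turns was not tested.

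Member counts moved as follows. Arrays of narrow range alone, with 1 young mdx array assumed to vary like the other groups, gave 1 call (Lox) for the mean over both ages, 0 for age in controls and 0 for age in mdx hearts. Age in controls gave 0 with the atrial covariate and 0 to 1 with 1 array left out, and age in mdx hearts 2 to 4 (4 without mdx replicate 3 at 8 weeks, which added Mfap2 and the dimmer Fbln1).

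The replicate number as a block gave 0 member calls for age in controls (Efemp1 adjusted p = 0.0587) and put Mfap2 past the threshold for age in mdx hearts (adjusted p = 0.0477). Over all probe sets the block gave 176 calls for mdx at 8 weeks, 3 at 10.5 months and 10 for the difference between ages. Whether replicate numbers pair the samples is not known.

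Counts over all probe sets also moved. For mdx at 8 weeks they were 127 with the atrial covariate, 23 in 8-week arrays alone and 42 to 308 with 1 array left out. At 10.5 months they were 3 in narrow-range arrays and 1 to 12 with 1 left out. For the mean they were 46 with an intensity trend in the prior, 127 in narrow-range arrays and 12 to 60. For the difference between ages they were 15 with an offset of 64, 3 with the atrial covariate, 110 in narrow-range arrays and 0 to 31. For age in controls they were 47 with an offset of 64, 54 with the trend, 12 with the atrial covariate, 12 in narrow-range arrays and 7 to 35. For age in mdx hearts they were 727 in narrow-range arrays and 598 to 1883 with 1 left out.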
